A study of Mus musculus with 18 samples.

Results

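CpG methylation at the milk protein genes of the mouse was read in 3 windows of the mm9 genome. They stand for the casein gene cluster with Csn1s1, Csn2, Csn1s2a, Csn1s2b and Csn3 (chromosome 5, 88050 to 88400 kb), for Wap (chromosome 11, 6525 to 6550 kb) and for Lalba (chromosome 15, 98300 to 98325 kb). A CpG was taken as a member when it lay inside a window and had at least 5 reads in at least 1 of the 18 libraries, which gave 116 CpGs of 1476285 in the series. The casein window held 38 of them, the Wap window 63 and the Lalba window 15. A single library read between 87 and 116. At least 5 reads in each of the 18 libraries were reached by 66 members (30 casein, 30 Wap and 6 Lalba) of 711980 CpGs in all, and tests were run on these. Positions are mm9 and count from 1. An mm9 gene annotation was not used here, so no CpG is assigned to a promoter, exon, intron or single gene. On build GRCm38 other genes, among them Prr27 and Odam, lie between Csn1s1 and Csn3. The windows thus need not hold milk protein genes alone.

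Caseins are the main proteins of milk. Csn1s1, Csn1s2a and Csn1s2b encode calcium-binding alpha caseins, Csn2 encodes beta casein, and Csn3 encodes kappa casein, which keeps the casein micelle in suspension. Wap encodes whey acidic protein, a major whey protein of rodents. Lalba encodes alpha-lactalbumin, which turns a galactosyltransferase into lactose synthase. These genes are switched on in secretory luminal cells during pregnancy and lactation, when prolactin acts through the transcription factor STAT5 together with glucocorticoids. In mammalian DNA, isolated CpGs are usually methylated, whereas dense clusters of CpGs are usually not.

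The libraries came from mammary epithelial cells of C57BL/6 females, purified from digested glands and labelled as stem cells, luminal progenitors or mature luminal cells. Each cell type gave 1 library from virgin mice at week 3 and at week 9, from mice at days 10, 16 and 19 of pregnancy, and from retired breeders. The labels name no other genotype or treatment, give no age for the pregnant or retired mice, and do not say whether animals were pooled or whether the cell types of a stage shared animals. Stages serve as the replicates, and the p-values thus reflect the spread among libraries, which may be partly technical. Reduced representation bisulfite sequencing reads fragments made by MspI, which cuts at CCGG, so CpGs far from such sites are missed.

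Reads summed over CpGs ran from 17513287 to 117922522 per library, with a median of 10 to 70 reads per CpG. Depth was lowest in the retired and day 16 libraries. The tested members had a median depth of 35 reads in the casein window, 46 in the Wap window and 53 in the Lalba window, against 38 over all tested CpGs. Expression was not measured, so the cell type labels could not be set against marker genes. Over the 118570 CpGs averaging 20 to 80%, the correlation across CpGs of levels centred on each CpG's mean averaged -0.015 for the 45 pairs of libraries of 1 cell type. It averaged -0.066 for the 18 pairs of 1 stage and -0.071 for the other 90 pairs. Centring on the mean of the same libraries by itself pulls such correlations towards negative values, so a negative average is no sign of opposition. The averages hide groups among the stem libraries. Those of pregnant and retired mice correlated positively with each other in all 6 pairs (0.145 to 0.332) and the week 3 and week 9 ones with each other (0.207), while pairs across these sets lay between -0.220 and 0.044. The groups were not confined to stem libraries. Week 9 mature cells correlated with each stem library of pregnant and retired mice (0.122 to 0.244), but at -0.179 with week 3 mature cells. Day 19 progenitors correlated at 0.262 with week 3 stem cells. The most alike pairs of all were day 10 with day 16 stem cells (r = 0.332) and week 9 virgin progenitors with day 16 mature cells (r = 0.328), the latter sharing neither cell type nor stage.

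The sequences before the start sites show how few CpGs these promoters offer to the assay. RefSeq promoters of build GRCm38.p6 were found for 5 of the 7 genes, all but Csn1s2b and Csn3. Those of 4 genes are shown (Csn1s2a, like Csn1s1, has no CG), 5′ to 3′ on the gene's strand for the 250 bases before the start, with each CG in capitals, and their coordinates cannot be laid over mm9.
Csn1s1: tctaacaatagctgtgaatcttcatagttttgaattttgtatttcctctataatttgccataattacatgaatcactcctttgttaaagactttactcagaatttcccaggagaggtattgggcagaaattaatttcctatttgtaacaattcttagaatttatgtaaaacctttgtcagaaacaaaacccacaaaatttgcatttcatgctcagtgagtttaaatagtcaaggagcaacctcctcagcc
Csn2: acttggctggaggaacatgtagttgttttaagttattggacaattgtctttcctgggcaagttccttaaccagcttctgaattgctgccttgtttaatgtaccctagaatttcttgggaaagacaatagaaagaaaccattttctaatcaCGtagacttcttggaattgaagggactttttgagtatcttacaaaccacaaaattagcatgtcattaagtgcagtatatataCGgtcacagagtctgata
Lalba: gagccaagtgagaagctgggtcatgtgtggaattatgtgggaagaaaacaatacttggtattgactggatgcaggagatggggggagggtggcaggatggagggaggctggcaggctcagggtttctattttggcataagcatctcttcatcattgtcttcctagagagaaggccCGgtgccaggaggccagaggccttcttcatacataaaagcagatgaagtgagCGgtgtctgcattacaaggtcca
Wap: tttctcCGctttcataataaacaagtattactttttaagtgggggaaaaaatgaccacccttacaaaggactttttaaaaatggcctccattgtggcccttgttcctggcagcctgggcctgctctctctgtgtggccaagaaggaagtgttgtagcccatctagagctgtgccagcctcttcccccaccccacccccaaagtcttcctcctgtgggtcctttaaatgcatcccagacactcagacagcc
Csn1s1 has no CG in this stretch. Csn2 has CGs at -100 and -18, Lalba at -75 and -23, and Wap at -244. Counted over 300 bases (250 before and 50 after the start), Csn1s1 and Csn1s2a have 0 CGs, Csn2 has 2, and Lalba and Wap have 3 each. The median over 32851 mouse promoters of that length is 7, and 5.43% of them have none. The MspI site CCGG is in the Lalba promoter at -76 and in Wap at +20, in the stretch cacttgcctgacacCGgtaccatgCGttgc just after the start. It is absent from the other 3, while 52.8% of all promoters hold it. The letters TTCNNNGAA, the consensus bound by STAT5 (the same on both strands), occur once in Csn1s1, Csn1s2a and Csn2, not in the 300 bases of Wap or Lalba, and in 8.3% of all promoters.

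The 3 windows differed in how many CpGs were read and in how methylated these were. The casein window held 1.09 CpGs per 10 kb. Its 38 CpGs compare with a median of 144 per 350-kb bin over the genome, and 5.33% of the bins held fewer. The Wap window held 63 CpGs against a median of 6 per 25-kb bin (95.4% of bins held fewer), and the Lalba window 15 (73.2% fewer). Of the 30 tested casein CpGs, 24 had a mean level above 80%, 2 lay between 20 and 80%, and 4 lay under 20%. In the Wap window the order was turned round, with 25 of 30 under 20%, 4 between and 1 above 80%. Of these 30 CpGs, 27 lay in 1 dense stretch with a mean of 2.85%, and the other 3 had medians above 80%. The Wap figures thus describe mostly this stretch, which is not assigned to the Wap gene. Lalba had 3 of 6 between and 3 above 80%. Over all tested CpGs, 39.7% were under 20% and 43.7% above 80%. The mean level of the tested CpGs was 80.8% in the casein window, 10.9% in the Wap window and 78.9% in the Lalba window.

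**Figure D1:**
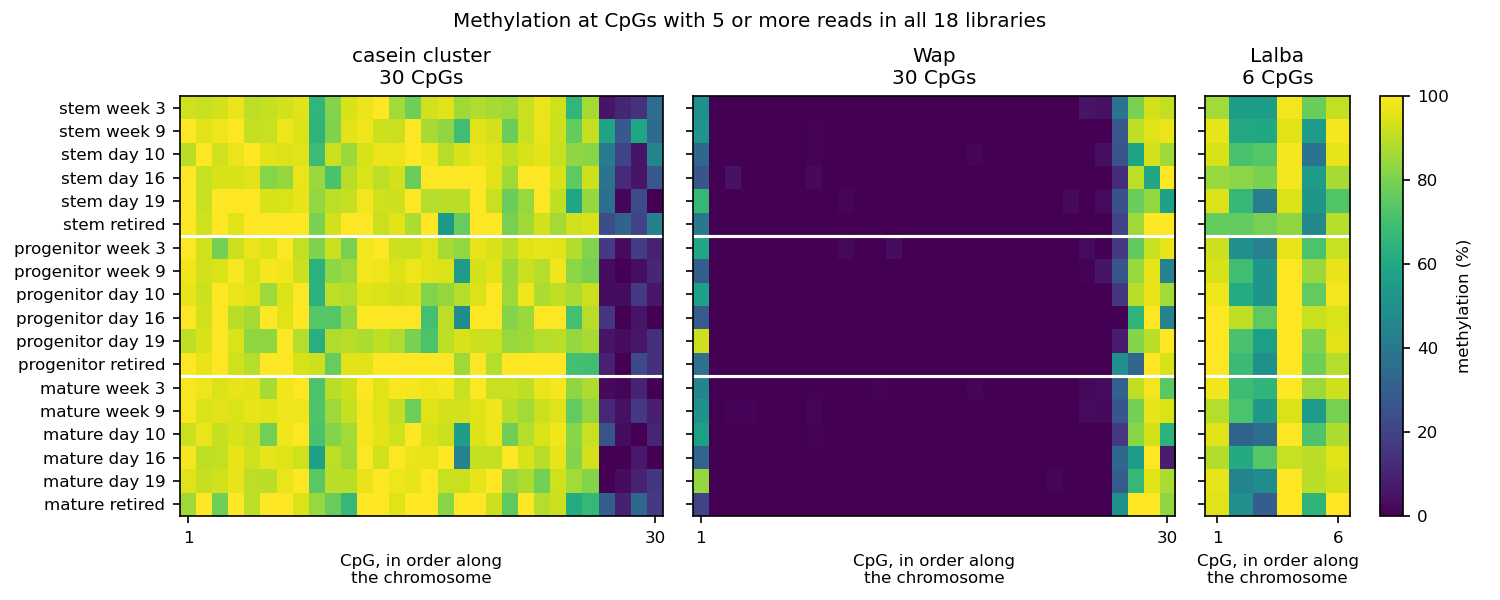
Methylation level (colour, in percent) of the 66 tested CpGs (columns, in chromosome order within each window) in the 18 libraries (rows, by cell type and stage). Of the 30 casein CpGs 24 have a mean above 80% and the last 4 lie under 20%, 25 of the 30 Wap CpGs have a mean under 20%, and 3 of the 6 Lalba CpGs have mean levels between 20 and 80%. The first 27 Wap CpGs lie in 1 dense stretch.

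Over the 18 libraries these window means ran from 77.0% to 84.2% (casein), 7.6% to 12.4% (Wap) and 70.6% to 91.9% (Lalba). By cell type, the casein means were 82.5% ± 1.9 (SD, n = 6) in stem cells, 79.7% ± 2.1 in progenitors and 80.3% ± 1.2 in mature cells, and the cell types' ranges overlapped. In the Wap window they were 11.0% ± 1.0, 10.6% ± 1.6 and 10.9% ± 1.7. In the Lalba window they were 76.8% ± 3.6, 82.5% ± 5.7 and 77.5% ± 5.8. By state, the casein mean was 81.0% ± 1.9 in virgin (n = 6), 80.1% ± 2.2 in pregnant (n = 9) and 82.6% ± 1.7 in retired libraries (n = 3). No test was made of these means, because the CpGs of a window share fragments and reads.

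At single CpGs, pregnancy was compared with the virgin state within each cell type. This asks whether levels in the milk protein gene windows differed while the gland prepared for lactation. A call needed a difference of 10 percentage points or more and an adjusted p under 0.05 in a quasi-binomial logistic regression with Benjamini-Hochberg adjustment over all 711980 CpGs. In stem cells 0 of 66 members were called, against 0.0431% of all CpGs, and 1 member had an unadjusted p under 0.05 (8.63% of all CpGs). In progenitors 0 of 66 were called (0% of all) and 4 had an unadjusted p under 0.05 (2.92% of all). In mature cells 0 of 66 were called (0% of all) and 5 had an unadjusted p under 0.05 (4.2% of all). Averaged over the cell types, 0 of 66 were called (0.00014% of all) and 3 had an unadjusted p under 0.05 (5.26% of all). The median difference over the 66 members was 0 points in stem cells and in progenitors, -0.054 points in mature cells and -0.037 points over all cell types, beside 0 points over all tested CpGs in each.

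Whether the pregnancy effect differed between cell types was tested as an interaction. The test works on the log odds of the logistic regression, while the differences given for single CpGs are in percentage points. For stem against progenitor cells 0 of 66 members were called (0% of all) and 3 had an unadjusted p under 0.05 (6.38% of all). Stem against mature cells gave 0 called (0% of all) and 3 with an unadjusted p under 0.05 (6.96% of all). Progenitor against mature cells gave 0 called (0% of all) and 4 with an unadjusted p under 0.05 (3.54% of all). Retired breeders, with 1 library per cell type, gave 0 called members against virgin (0% of all) and against pregnant libraries (0% of all). Unadjusted p-values under 0.05 were found for 0 members (4.57% of all) and 5 members (4.28% of all) there.

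The cell types were compared within stages. Stem against progenitor cells gave 0 called members (0.00267% of all CpGs) and 5 with an unadjusted p under 0.05 (6.84% of all). Stem against mature cells gave 0 called (0.000843% of all) and 5 with an unadjusted p under 0.05 (7.74% of all). Progenitor against mature cells gave 0 called (0% of all) and 2 with an unadjusted p under 0.05 (5.11% of all). The smallest adjusted p of any member in the quasi-binomial test was 0.148, for stem against progenitor cells at a CpG of the casein window. The values that follow are descriptions of single CpGs, each with its test.

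The casein window fell into 12 groups of CpGs more than 500 bases apart, here called sites, 11 of which had tested CpGs. Mean levels at 10 of the 11 lay between 80.5% and 95.5%. The remaining site, the last of the window, spans 88354481 to 88354661 and holds 4 tested CpGs with a mean of 14.2%. Averaged over its CpGs, this site was at 25.8% ± 11.1 in stem cells (SD, n = 6 stages, from 15.2% to 44.8%), 7.8% ± 3.0 in progenitors (4.4% to 11.8%) and 9.1% ± 7.3 in mature cells (1.7% to 22.2%). Every stem library lay above every progenitor library, whereas stem and mature cells overlapped. The site holds the CpGs named for the smallest p of the members in these comparisons, so this separation adds no support.

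CpG 88354597 was the deepest of the site, with 23 to 136 reads per library. In stem cells it was at 10.3% at week 3, 27.8% at week 9, 20.3% at day 10, 11.8% at day 16, 1.4% at day 19 and 32.0% in retired mice. Progenitors had 2.8%, 0%, 3.5%, 0%, 3.3% and 0% at the same stages, and mature cells 1.5%, 4.3%, 3.4%, 0%, 3.3% and 8.7%. Stem cells stood above both luminal types at every stage except day 19, where 1 of 71 reads was methylated (exact 95% Clopper-Pearson interval 0.036% to 7.6%). The progenitor zeros rest on 119, 32 and 44 reads, which allow levels of up to 2.52%, 9.38% and 6.82% when the limit is set at 3 counts of the total (the Clopper-Pearson intervals reach 3.05%, 10.9% and 8.04%). Such intervals and limits cover counting error alone.

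The stem minus progenitor difference at 88354597 was 15.7 points ± 12.7 (SD over 6 stages, higher in 5 of 6; quasi-binomial p = 4.358e-05, adjusted p = 0.148). The stem minus mature difference was 13.7 points ± 9.7 (higher in 5 of 6; adjusted p = 0.180). Neither passed the adjusted threshold. The CpG was named for the smallest p of the members in stem against progenitor cells. The counts of stages and the differences with libraries left out thus add no support. Leaving out each library in turn gave differences from 12.4 to 19.2 points between stem and progenitor cells, and the libraries with 4-column files alone gave 17.4 points. Without the week 9 progenitor library, which resembled a library of another label, the difference was 13.2 points.

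Stem cells had the highest mean at the other CpGs of the site too. At 88354661, stem cells were at 35.6%, 34.4%, 45.5%, 27.3%, 0% and 44.0% from week 3 to retired mice. The day 10 and day 16 stem levels rest on 5 of 11 and 3 of 11 reads. Progenitors there ranged from 0% to 13.6% with a median of 10.0%, and mature cells from 0% to 16.7% with a median of 9.3%. Day 16 progenitors had 0 of 6 reads methylated and retired mature cells 1 of 6. As at the neighbouring CpG, the day 19 stem library was the exception, with 0 of 22 reads methylated (a level of up to 13.6% is allowed by the limit of 3 counts). The stem minus progenitor difference was 22.3 points ± 18.4 (5 of 6 stages; adjusted p = 0.327, quasi-binomial test), and stem minus mature 22.6 points ± 19.3 (5 of 6; adjusted p = 0.174). This CpG was named for the smallest p of the members in stem against mature cells, so that count adds no support.

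At 88354481 stem cells were at 5.3%, 58.3%, 40.9%, 37.9%, 36.4% and 24.0% in the same order of stages. Progenitors ranged from 3.2% to 17.1% (median 7.3%) and mature cells from 0% to 30% (median 7.0%). Stem cells stood above progenitors at every stage except week 3. The stem minus progenitor difference was 24.9 points ± 22.6 (5 of 6; adjusted p = 0.439, quasi-binomial test) and stem minus mature 22.2 points ± 21.4 (5 of 6; adjusted p = 0.423). At 88354624 the means were 21.1% ± 19.8, 12.1% ± 8.0 and 12.6% ± 11.5, and stem cells exceeded progenitors in 2 of 6 stages. The CpGs of the site lie within 180 bases of each other and are not independent measurements.

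**Figure D2:**
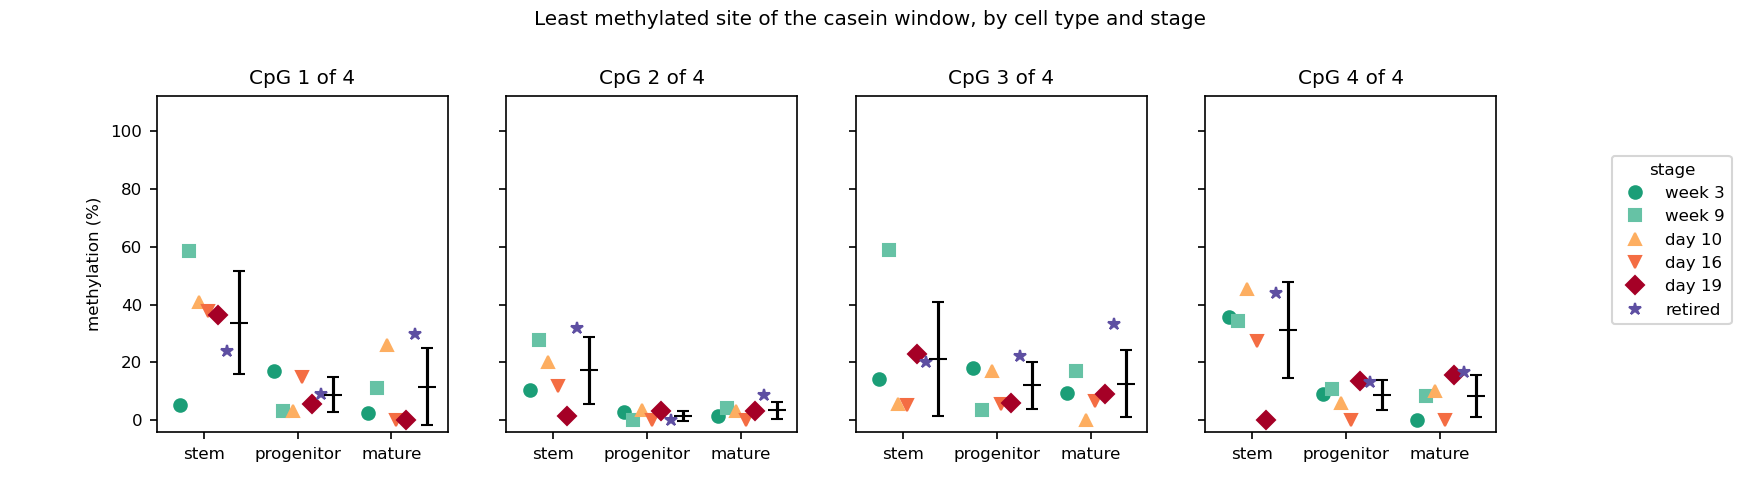
Methylation (percent) at the 4 CpGs of the least methylated casein site, left to right in chromosome order, by cell type, with 1 point per library marked by stage and black bars for mean ± SD (n = 6). Stem cell points spread up to 58.7%, while no progenitor point exceeds 22.2%.

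Over all cell types the state order at 88354624 was 20.2% ± 19.6 in virgin, 8.7% ± 7.0 in pregnant and 25.2% ± 7.1 in retired libraries. The retired levels rest on 2 of 10 reads in stem cells, 2 of 9 in progenitors and 2 of 6 in mature cells. In stem cells this CpG was at 14.3% at week 3, 58.7% at week 9, then 5.6%, 5.3% and 23.1% at pregnancy days 10, 16 and 19. The week 9 library (44 of 75 reads, interval 46.7% to 69.9%) stood apart from the other 5 stem libraries, the highest of which was at 23.1%. Virgin stem cells averaged 36.5% ± 31.4 (n = 2) and pregnant ones 11.3% ± 10.2 (n = 3), groups that overlapped. The pregnant minus virgin difference of -25.2 points had an adjusted p of 0.354 by the quasi-binomial test, and it was -3.0 points without the week 9 stem library.

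CpG 88219147, one of 2 CpGs of a site inside the casein window, had the widest spread among the highly methylated tested casein CpGs. Stem cells had 85.7%, 69.4%, 93.9%, 100%, 89.8% and 76.9% from week 3 to retired mice. Progenitors had 83.9%, 55.0%, 88.8%, 48.5%, 93.9% and 85.7%. Mature cells had 91.5%, 93.3%, 55.7%, 44.2%, 92.1% and 100%. Low values were thus found in week 9 and day 16 progenitors and in day 10 and day 16 mature cells, each with 33 to 129 reads. The other CpG of the site, 88219027, was untested and had at least 5 reads in 14 libraries. Week 9 and day 16 progenitors and day 16 mature cells were at 61.2%, 42.9% and 40% there. Day 10 mature cells were at 87.5% at that CpG, the same as week 9 mature cells. In mature cells the virgin mean was 92.4% ± 1.2 (n = 2) and the pregnant mean 64.0% ± 25.0 (n = 3). The groups overlapped, since day 19 was at 92.1%, and the difference of -28.4 points did not pass (p = 0.00152, adjusted p = 1, quasi-binomial test). CpG 88219147 was named for the smallest p of the members in this same comparison. The observed pregnancy effects of stem and mature cells lay 45.4 points apart, but their interaction did not pass (adjusted p = 0.269, quasi-binomial test).

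At 88189400 the progenitors were at 95.6% and 95.2% as virgins, 80.9%, 70.0% and 72.2% at pregnancy days 10, 16 and 19, and 100% in retired mice. Virgin and pregnant progenitors did not overlap (95.4% ± 0.3 against 74.4% ± 5.8). The CpG was named for the smallest p of the members in this same comparison, so the lack of overlap adds no support. The difference of -21.0 points did not pass the adjusted threshold (p = 0.00128, adjusted p = 1, quasi-binomial test). The day 16 level rests on 7 of 10 reads (Clopper-Pearson interval 34.8% to 93.3%). Stem and mature cells stayed between 87.0% and 100% at all stages. The difference in pregnancy effect between stem cells and progenitors was 26.3 points (adjusted p = 0.450). At 13 bases from it, 88189413 ranged from 54.5% in retired stem cells to 100%, with the progenitors between 84.1% and 100%. Virgin and pregnant progenitors overlapped there, at 90.7% ± 5.3 and 88.0% ± 3.4.

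CpGs named for the retired comparisons were also in the casein window. At 88180394 retired libraries were at 80%, 92.3% and 84.6% in stem, progenitor and mature cells. Virgin libraries averaged 70.0% ± 6.5 (n = 6) and pregnant ones 71.1% ± 9.5 (n = 9). The retired minus virgin difference was 15.7 points (adjusted p = 1, quasi-binomial test). At 88174677 all 3 retired libraries were at 100%, with 11 to 21 reads, and the pregnant libraries at 89.4% ± 7.4 (difference 10.6 points, adjusted p = 1).

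The Wap window was read mainly through a dense stretch from 6525300 to 6526718 with 46 CpGs, 27 of them tested. The mean level of the tested CpGs there was 2.85%, and it ranged over libraries from 1.06% to 4.24%. Stem, progenitor and mature libraries averaged 2.8% ± 0.8, 2.7% ± 0.9 and 3.1% ± 0.6 (n = 6 each). CpG 6526618 had methylated reads in 5 of 6 virgin libraries (at 5.8%, 0%, 2.8%, 1.0%, 2.2% and 2.9%) and in none of the 9 pregnant or 3 retired ones. Those zeros rest on 14 to 76 reads, for which the limit of 3 counts is 3.95% to 21.4%, above the virgin mean of 2.4%. CpG 6526618 was named for the smallest p of the members in pregnancy over all cell types, so this split adds no support. The neighbouring CpG 6526622 had methylated reads in day 10 and day 19 stem cells (3.7% and 2.9%). It had none in week 3 progenitors or week 9 stem cells, and 2.2% to 5.8% in the other virgin libraries. At 6526618 the difference of -2.44 points had a p of 0.00168 and an adjusted p of 0.936 by the quasi-binomial test. It lay under the 10 points needed for a call. At 6525913 the highest level in any library was 2.5%.

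Towards the start of this stretch, CpG 6525480 was partly methylated, at a mean of 48.1% over libraries. Its day 19 levels stood apart in all cell types. They were at 66.7% (stem), 92.3% (progenitor) and 84.0% (mature), and the other 15 libraries lay between 20.7% and 59.3%, without overlap. Day 16 libraries were at 26.7%, 28.6% and 32.7%, and retired ones at 40.0%, 37.5% and 20.7%. The day 19 levels rest on 13 to 25 reads, and CpGs 6525300, 6525307 and 6525469, just before it, had fewer than 5 reads in each day 19 library and at least 5 in each of the other 15. The next CpGs, 6525484 and 6525496, were read at day 19, and their day 19 levels did not stand apart in all cell types. At 6525484 day 19 stem, progenitor and mature cells were at 90.9%, 83.3% and 72.7%, in a range of 66.7% to 100% over 17 libraries. At 6525496 they were at 90.9%, 66.7% and 81%, in a range of 57.1% to 90.9%. The part of the missing coverage before 6525480 in its high day 19 levels was not tested. At 6526718, at the other end of the stretch, levels ran from 0% (0 of 6 reads) to 50%, with means of 27.8% ± 7.1 in virgin, 18.5% ± 10.8 in pregnant and 40.0% ± 17.3 in retired libraries.

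Beyond the dense stretch, all 3 tested CpGs of the Wap window had medians above 80%, while untested ones reached down to a mean of 2.29% at 6528738. CpG 6537172 ran from 33.3% to 100% over libraries (median 80.5%), and 6537182, which lies 10 bases on, from 60% to 100% (median 95.7%). The widest spread of all tested members, 92.4 points, was at 6538509. Stem cells there were at 90.7%, 97.0%, 85.7%, 100%, 57.1% and 100% from week 3 to retired mice. Progenitors were at 96.7%, 44.4%, 86.3%, 45.0%, 100% and 94.1%. Mature cells were at 74.3%, 94.4%, 63.9%, 7.5%, 87.3% and 83.3%.

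The low libraries at 6538509 were day 16 mature cells (4 of 53 reads, Clopper-Pearson interval 2.1% to 18.2%), week 9 progenitors (44 of 99), day 16 progenitors (9 of 20) and day 19 stem cells (57.1%, 12 of 21). Virgin and pregnant mature cells averaged 84.3% ± 14.2 (n = 2) and 52.9% ± 41.0 (n = 3). The difference of -31.5 points did not pass (adjusted p = 1, quasi-binomial test). Without the day 16 mature library it was -8.8 points. Of the 4 libraries under 60% here and the 4 under 60% at 88219147 in the casein window, 3 were the same: week 9 progenitors, day 16 progenitors and day 16 mature cells. The first and the last of these were also one of the most alike pairs of libraries over the CpGs averaging 20 to 80%. The part of that likeness in these low values was not tested.

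CpGs 6538621 and 6538631, in the same site, had 5 or more reads in 17 libraries and are named here after their values were seen. At 6538621 stem cells were at 87.5%, 94.9%, 100%, 80%, 75.0% and 22.2% from week 3 to retired mice. Progenitors were at 66.7%, 25.0%, 63.2%, 41.2% and 71.4% from week 3 to day 19, and mature cells ranged from 9.1% to 76.9%. Stem cells were above progenitors in 5 of 5 stages, by 34.0 points ± 24.6 at 6538621 and by 31.9 points ± 22.4 at 6538631. The retired stage is missing from this count, since retired progenitors had fewer than 5 reads. Retired stem cells were at 22.2% and 36.8% at these CpGs. At 6538509, the tested CpG of the site, stem cells were above progenitors in 3 of 6 stages (10.7 points ± 37.4). In the fit of all CpGs with at least 1 read in each library, the stem minus progenitor differences were 32.0 and 32.7 points (adjusted p = 0.505 and 0.502, quasi-binomial test). Day 16 mature cells had the lowest level at all 3 CpGs of the site, 7.5%, 9.1% and 3.0%.

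**Figure D3:**
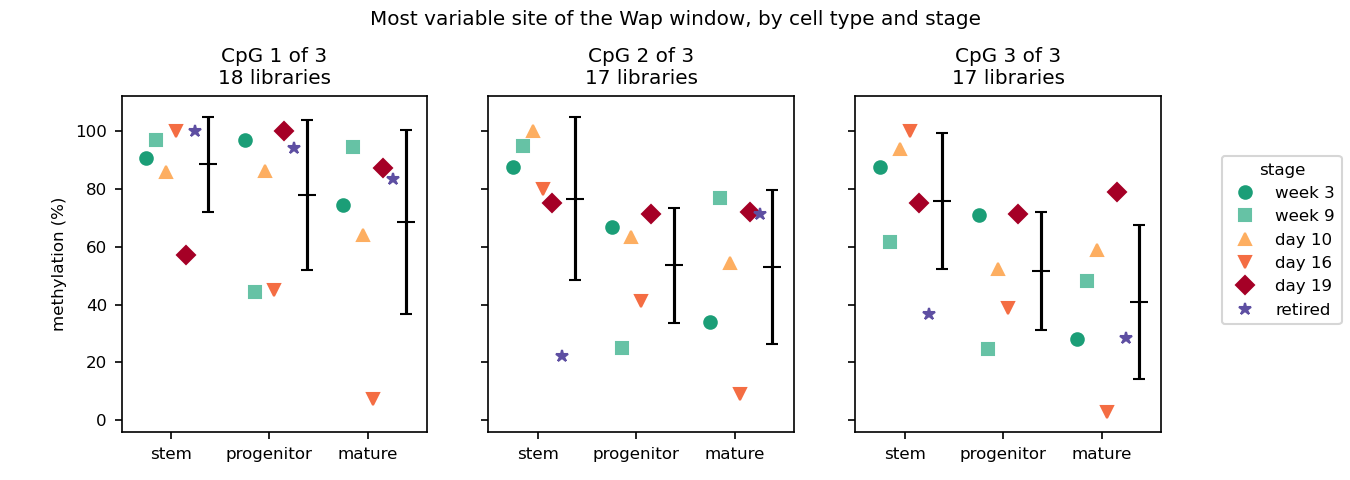
Methylation (percent) at the 3 CpGs of the most variable Wap site, left to right in chromosome order, by cell type, with 1 point per library marked by stage and black bars for mean ± SD over the libraries with at least 5 reads. Day 16 mature cells are the lowest point at each CpG (7.5%, 9.1% and 3.0%).

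In the Lalba window the 6 tested CpGs lay at 3 sites. CpGs 98306397, 98320418 and 98323957 were highly methylated, with medians over libraries of 94.8%, 99.3% and 92.8%. The other three were at middle levels. At 98323934, which had 27 to 222 reads per library, stem cells were at 77.4%, 55.0%, 38.2%, 55.4%, 52.9% and 47.1% from week 3 to retired mice. Progenitors were at 71.6%, 85.1%, 76.0%, 91.7%, 80.7% and 77.8%. Mature cells were at 85.6%, 54.7%, 72.6%, 89.8%, 89.7% and 65.5%.

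Stem cells were thus the lowest of the cell types at 98323934 from day 10 to retired mice, opposite in sign to the low casein site. The means were 54.3% ± 13.0 in stem cells, 80.5% ± 7.1 in progenitors and 76.3% ± 14.4 in mature cells (n = 6). Stem minus progenitor was -26.1 points ± 16.1 (lower in 5 of 6 stages, week 3 being the exception; p = 0.00128, adjusted p = 0.335, quasi-binomial test). Stem minus mature was -22.0 points ± 15.7 (lower in 5 of 6; adjusted p = 0.479). Leaving out each library in turn gave stem minus progenitor differences from -32.5 to -23.8 points. The neighbouring CpG 98323957, 23 bases on, was at 89.0% ± 9.0, 94.2% ± 3.4 and 91.3% ± 7.0, so its cell types overlapped.

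At 98306493 mature cells were at 69.0% and 71.7% as virgins, at 32.1%, 61.1% and 45.2% at pregnancy days 10, 16 and 19, and at 50% in retired mice. Virgin and pregnant mature cells did not overlap (70.3% ± 1.9 against 46.1% ± 14.5), and the difference of -24.2 points did not pass (p = 0.00614, adjusted p = 1, quasi-binomial test). Without the day 10 mature library the difference was -17.2 points (unadjusted p = 0.107, quasi-binomial test). Stem cells at this CpG went the other way in their means, 58.3% ± 3.1 as virgins and 73.6% ± 8.3 when pregnant. The observed pregnancy effects of stem and mature cells lay 39.5 points apart, but their interaction did not pass (adjusted p = 0.401, quasi-binomial test). At 98306510, which lies 17 bases on, stem, progenitor and mature cells were at 65.3% ± 14.8, 55.2% ± 10.5 and 51.3% ± 16.8. Virgin and pregnant mature cells overlapped there, at 59.7% ± 8.3 and 52.7% ± 19.2, with the day 16 library at 73.7%.

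**Figure D4:**
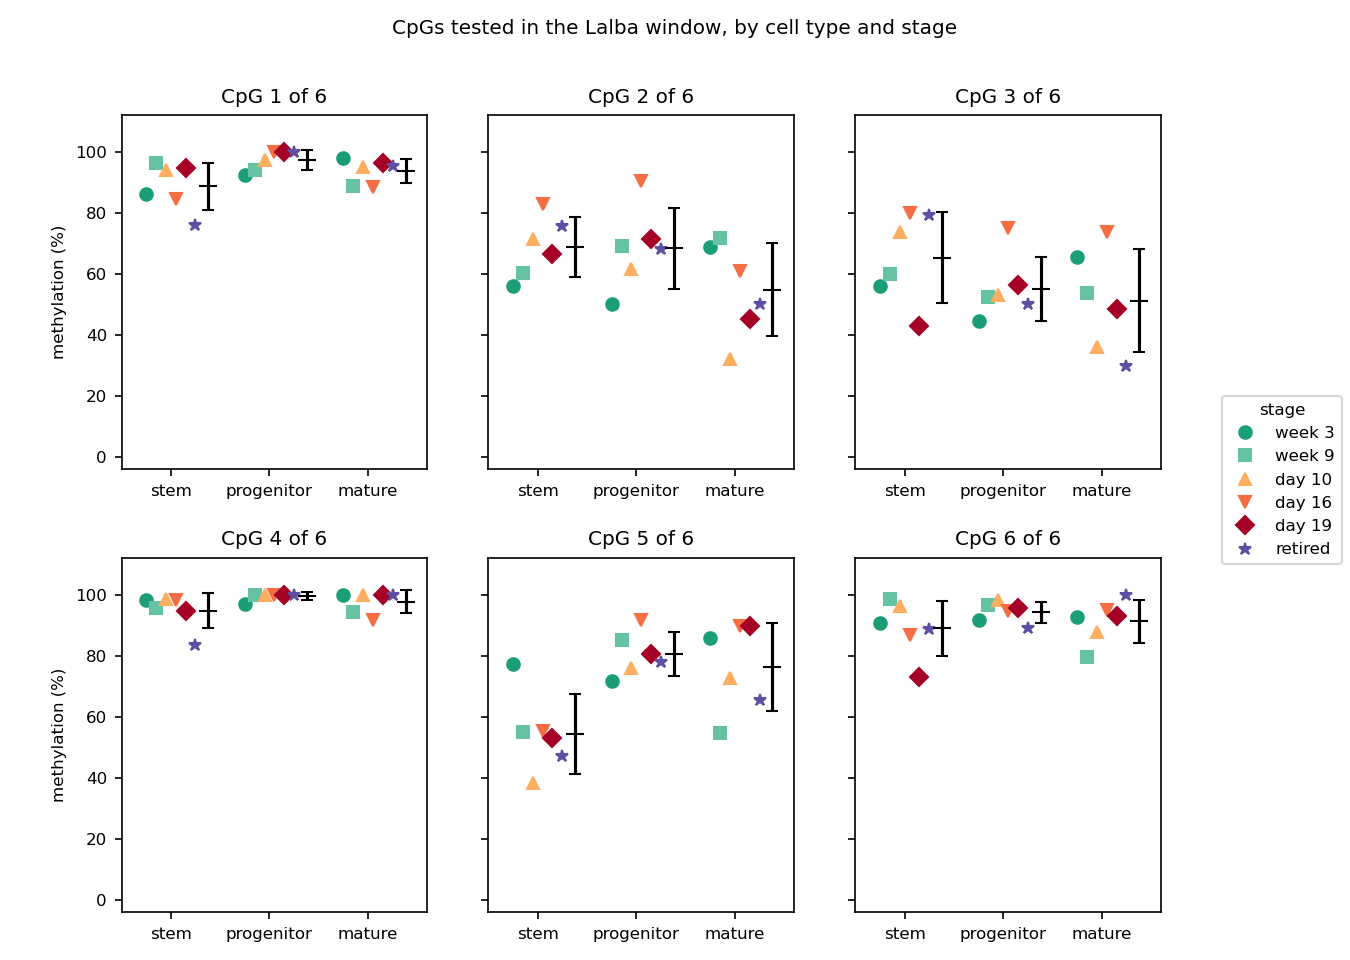
Methylation (percent) at the 6 tested CpGs of the Lalba window, in chromosome order, by cell type, with 1 point per library marked by stage and black bars for mean ± SD (n = 6). At CpG 5 stem cells average 54.3% and progenitors 80.5%, while CpGs 1, 4 and 6 are at or above 73.0% in every library.

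The other 50 members, with at least 5 reads in some but not all libraries, were not tested. In the casein window 8 such CpGs had mean levels from 53.1% to 94.7%. In the Wap window the 33 had mean levels from 0% to 96.3%, and in the Lalba window the 9 had mean levels from 41.6% to 98.2%.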

How the data were processed

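DNA methylation was read by multiplexed reduced representation bisulfite sequencing, per the labels' protocols. The 18 files the authors deposited list 1 CpG per line with methylated over total reads (a fraction in text form), on build mm9 per the submitters' processing notes. In 7 files (day 16 progenitor, all day 19 and all retired libraries) the authors also deposited a strand and a score, which was not used in the tests. What aligner, caller, read filters and duplicate handling were used is not given in the sources used here.

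Methylated and total reads were taken at CpGs with at least 5 reads. Each CpG with that depth in all 18 libraries entered a quasi-binomial logistic regression, tested by a deviance F test. Dispersion was kept from falling under 1 and moderated by the squeezeVar method of limma. P-values were adjusted by Benjamini-Hochberg over the whole table. Pregnancy was tested in a model of 9 groups of cell type and state, pooled states in a model of cell type and state, and cell types in a model of cell type and stage, which pairs the cell types of a stage by the stage in their labels. The prior of the dispersion came from CpGs with mean levels of 5 to 95%, after tests on simulated data with a prior from all CpGs recovered no changed CpG. The other prior was kept as an alternative.

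Named are, in each window, the 5 tested CpGs with the widest range over libraries, the CpG with the smallest p in each of the 9 comparisons of state or cell type, and all tested Lalba CpGs. The members and lists were chosen with earlier results of these data known. Other genes of the milk protein pathway were not analysed here, since the gene table at hand is on GRCm38.p6. The alternatives were other read minimums, removal of the deepest CpGs, 4-column files alone, a difference of 20 points, limma on log2((methylated + 1)/(unmethylated + 1)), models without stage or cell type, and leaving out each library in turn. Python 3.11.15, numpy 2.4.6, scipy 1.17.1, pandas 2.3.3, numba 0.67.0, matplotlib 3.10.9, R 4.3.3 and limma 3.58.1 were used.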

Additional observations from a re-analysis of the deposited data

How the results depend on the processing

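No member was called in any of the 12 comparisons under any of the alternatives run, including those that left out each of the 18 libraries in turn and the fit of cell types with no replicate block (0 members called for stem against progenitor, stem against mature and progenitor against mature cells). The smallest adjusted p of a member under any alternative of the quasi-binomial test was 0.0586, for pregnancy in stem cells, 0.0678 for stem against mature and 0.0814 for stem against progenitor cells. The mean level of the Wap window moved from 10.9% (30 CpGs) to 3.42% with at least 10 reads in all libraries (15 CpGs) and to 16.7% with at least 1 read (50 CpGs), because other CpGs enter it. Limma on log2 ratios put 18 of 66 members (27.3%) past an adjusted p of 0.05 for retired against virgin libraries, beside 31.7% of all CpGs. All 18 were Wap CpGs with a median level of 0%, and 11 of them had no methylated read in any library. None of these differences reached 10 points.

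The share of the whole table that was called depended on the settings. For pregnancy in stem cells 307 CpGs were called, with 47 at a minimum of 10 reads, 0 in 4-column files alone and 0 with a prior from all CpGs. Leaving out single libraries gave 0 (without week 9, day 10 or day 16 stem cells) to 4070 calls (without week 3 mature cells). Stem against progenitor cells gave 19 calls, 6 at 10 reads, 29 at 1 read, 11 with 12 or more libraries, 1 with no replicate block, 0 in 4-column files alone or with the other prior, and 4 to 357 when single libraries were left out. Stem against mature cells gave 6 calls, 17 at 1 read, 3 with 12 or more libraries, 0 at 10 reads, with no replicate block, in 4-column files alone or with the other prior, and 1 to 852 when single libraries were left out. The cause was not tested. The difference in pregnancy effect between stem and mature cells gave 0 calls and up to 3951 without week 3 mature cells. The retired comparisons could not be fitted in 4-column files alone, which hold no retired library.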
